A study of Mus musculus with 78 samples.

Results

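Activated mouse CD8+ T cells take up glucose and ferment much of it to lactate, and 36 genes of that route and of the hypoxia-inducible factor (HIF) pathway that controls it are described here. The genes were picked by name: a row of the deposited count table was a member where its symbol was among the 36. The rule uses no measured value, but the list was drawn up with earlier results of these data known. All 36 were found among the 14695 genes of the table, and all 36 passed the filter on low counts in every comparison. Aldoa had a second row under another identifier, with 0 to 22 reads per library, which was left out. By role the members are 2 glucose transporter genes, 16 genes of glycolytic enzymes, 3 genes of lactate export and of the gate to the mitochondrion, 2 genes of enzymes that set fructose-2,6-bisphosphate, 4 genes of the HIF pathway itself and 9 other HIF targets.

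Spleens and lymph nodes of C57BL/6J mice gave the cells, which were treated for 3 h on day 3 after activation began. The nutrient experiment set medium without arginine, without branched-chain amino acids (BCAA), without glucose, without glutamine or without methionine against complete medium (Control). The drug experiment set halofuginone, Torin1 or 4EGI-1 against the solvent DMSO. Halofuginone blocks prolyl-tRNA synthetase, Torin1 blocks the kinase mTOR, and 4EGI-1 was made to keep the cap-binding protein eIF4E from eIF4G. The doses are not given in the sources used here, and all cells are of a single strain with no genotype contrast. Each lysate gave a library of total RNA and a library of polysome RNA, pooled from the gradient fractions where several ribosomes sit on an mRNA. Every group held 3 libraries, 60 in all. Nothing says that replicates came from separate cultures or animals, so a p-value here weighs a change against library-to-library spread alone, which may be technical.

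HIF is a transcription factor made of an alpha subunit, HIF-1α from Hif1a, and a stable partner. In the presence of oxygen the prolyl hydroxylases encoded by Egln1 and Egln3 mark the alpha subunit, and the protein of Vhl then sends it to the proteasome. HIF raises the mRNA of glucose transporters, of nearly every glycolytic enzyme and of the lactate exporter Slc16a3. It also raises Egln1 and Egln3, which makes the hydroxylases feedback targets. In T cells HIF-1α is present under normal oxygen after activation, where signals through mTOR and MYC also drive glucose use. Since control lies largely on the HIF-1α protein, the level of Hif1a mRNA and the level of its target mRNAs need not move together.

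In the nutrient experiment a library of total RNA held 15144663 to 30637485 counted reads and a polysome library 29917770 to 54272886. In the drug experiment the ranges were 17506526 to 23099949 and 17846266 to 24929556 in the same order. The members took 2.80 to 3.48% of the reads in nutrient total RNA and 3.56 to 4.38% in nutrient polysome RNA, and 2.67 to 3.39% and 3.78 to 5.12% in the drug experiment. The defining T cell and CD8 genes were present in all 60 libraries, with Cd8a at 82.3 CPM or more and Cd3e at 43.8 CPM or more. The summed level of the 7 CD8 T cell genes in total RNA was 1589 to 1738 CPM in Control. It was 1419 to 1541 CPM without glutamine, 1446 to 1511 CPM without glucose and 1488 to 1537 CPM without BCAA. Without methionine it was 1515 to 1636 CPM and without arginine 1598 to 1724 CPM. With each drug it overlapped the 2168 to 2407 CPM with DMSO. In nutrient polysome RNA it was lowest without methionine, at 1166 to 1258 CPM, against 1770 to 2078 CPM in Control. Of the B cell genes, Cd79a stayed at or below 0.599 CPM and Cd79b at or below 18.8 CPM. Their summed level in total RNA was 2.38 to 3.02 CPM without glutamine and 1.66 to 2.10 CPM without methionine, against 1.96 to 2.72 CPM in Control. In the drug experiment it was 5.81 to 6.19 CPM with Torin1, 7.78 to 10.6 CPM with 4EGI-1 and 5.91 to 8.01 CPM with halofuginone, against 6.35 to 7.54 CPM with DMSO. The summed level of the CD4 lineage genes Foxp3 and Zbtb7b was 21.1 to 24.9 CPM without glutamine, 18.8 to 21.5 CPM without glucose, 18.3 to 21.7 CPM without BCAA, 15.6 to 18.6 CPM without methionine and 10.4 to 11.4 CPM without arginine, against 10.6 to 12.6 CPM in Control. In the drug experiment that sum was 6.85 to 10.6 CPM with Torin1, 18.5 to 19.9 CPM with 4EGI-1 and 14.4 to 16.3 CPM with halofuginone, against 11.7 to 13.1 CPM with DMSO, and the part of other cells in any result below was not tested. None of the 7 myeloid and 5 erythroid marker genes looked up had a row among the genes counted, so their levels were not analysed here. In these bulk samples fewer cells of a type and less RNA per cell cannot be told apart.

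Levels are CPM, counts scaled to a common library size by TMM, given for each of the 3 libraries of a group. Changes are log2 fold changes with ± for the standard error, tested by edgeR's quasi-likelihood F test with Benjamini-Hochberg adjustment over all genes. A gene is said to rise or fall only where the adjusted p was under 0.05. Apart from Slc2a1, Hif1a and Egln3, members given library by library were picked among called members whose groups did not overlap. Their lack of overlap follows from that choice and is no further support, and it was not counted over all genes. All conditions of an experiment are set against the same 3 control libraries, so the comparisons within an experiment are not independent of each other. Scaling makes every change relative to the bulk of genes, and a shift common to all of them would not be seen. Mouse Gapdh, Aldoa, Eno1, Ldha, Pgk1, Pgam1 and Tpi1 have processed pseudogene copies, and how the authors' counting treated reads shared with such copies or with antisense transcripts is not given, so their levels carry that uncertainty.

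Glutamine withdrawal lowered both glucose transporter genes, the 3 genes of lactate export and pyruvate gating and 8 of the 9 other HIF targets, Ak4 by 8.04-fold. Without glutamine 24 of the 36 members fell in total RNA and 1 rose, where 39.0% of the 12642 genes tested changed (18.6% lower, 20.4% higher). The median change of the members was -0.33, beside -0.01 for all genes tested. Ak4, a mitochondrial adenylate kinase, had 11.6, 11.3 and 10.9 CPM in the 3 libraries without glutamine, against 94.2, 86.6 and 90.5 CPM in Control. It fell by 3.01 ± 0.08 (adjusted p = 3.5e-17), and the groups did not come near each other. Hilpda, which coats lipid droplets and blocks their breakdown, had 22.6, 24.5 and 24.9 CPM without glutamine, against 107, 113 and 117 CPM in Control, and fell by 2.23 ± 0.06 (adjusted p = 1.8e-16). All 3 libraries without glutamine lay at about the same low level for both genes.

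The transporters followed. Slc2a1, which encodes the glucose transporter GLUT1, had 116, 129 and 118 CPM without glutamine, against 385, 454 and 423 CPM in Control, a change of -1.80 ± 0.09 (adjusted p = 4.0e-12). Slc16a3, the lactate exporter MCT4, had 145, 143 and 148 CPM without glutamine, against 396, 475 and 448 CPM in Control, a change of -1.60 ± 0.11 (adjusted p = 1.9e-10). In neither gene did any library without glutamine reach the lowest Control library. The second glucose transporter gene, Slc2a3 (GLUT3), fell by 0.63 ± 0.07, and Slc16a1 (MCT1), the other lactate carrier, by 0.57 ± 0.07. Pdk1, the kinase that shuts pyruvate dehydrogenase and so keeps pyruvate in the cytosol, fell by 0.68 ± 0.06.

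Within the HIF pathway itself the hydroxylase genes fell and the genes of the factor and of its ubiquitin ligase did not. Egln3 had 133, 133 and 133 CPM without glutamine, against 317, 330.1 and 329.5 CPM in Control (-1.29 ± 0.06, adjusted p = 2.3e-13), and Egln1 changed by -0.98 ± 0.06. The 3 libraries without glutamine were nearly equal in Egln3 and far below Control. Hif1a had 1117, 1220.0 and 1199 CPM without glutamine, against 1125, 1047 and 1063 CPM in Control, overlapping groups with a change of 0.13 ± 0.07 that did not pass (adjusted p = 0.17). Vhl was the member that rose, by 0.20 ± 0.06.

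Of the 16 glycolytic enzyme genes 8 fell without glutamine, with a median of -0.16 for the group. The larger changes were in the liver-type phosphofructokinase gene Pfkl (-1.11 ± 0.08), the triosephosphate isomerase gene Tpi1 (-0.66 ± 0.06) and the phosphoglycerate mutase gene Pgam1 (-0.56 ± 0.06). Eno1, Eno2, Pkm, Aldoa, Aldoc, Pfkm, Hk2 and Gpi1 were not called, with values between -0.14 and 0.11. Pfkfb3, whose product raises fructose-2,6-bisphosphate and thereby speeds phosphofructokinase, fell by 1.35 ± 0.10, while Pfkfb4 stood at -0.11 ± 0.11 and was not called. Among the 9 other HIF targets 8 fell, with a median of -0.70. Besides Ak4 and Hilpda these were Ankrd37 (-1.48 ± 0.10), an ankyrin repeat protein, the mitophagy receptors Bnip3 (-0.74 ± 0.08) and Bnip3l (-0.33 ± 0.06), the collagen prolyl hydroxylase subunit P4ha1 (-0.70 ± 0.07), the oxidase Ero1a of the endoplasmic reticulum (-0.34 ± 0.06) and the MAX partner Mxi1 (-0.24 ± 0.06). The transcriptional repressor gene Bhlhe40 stood at 0.09 ± 0.08 and was not called.

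**Figure D1:**
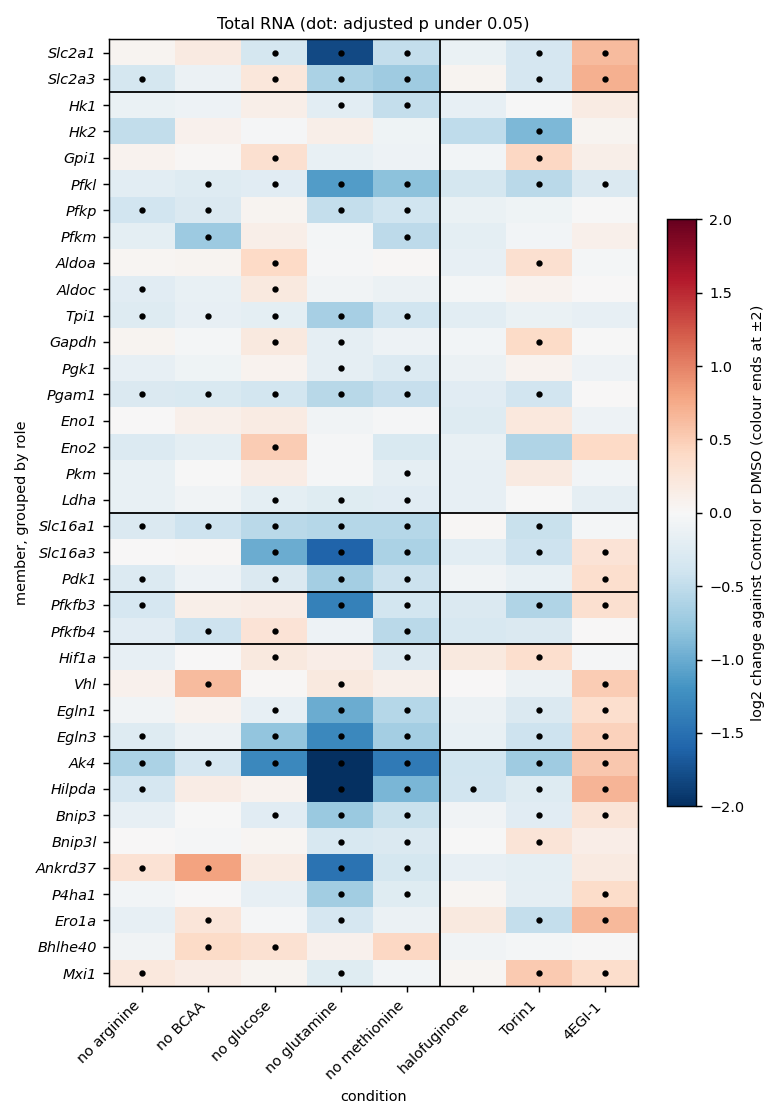
Log2 change in total RNA of the 36 members (rows, grouped by role, with lines between roles) in the 5 nutrient conditions against Control and the 3 drug conditions against DMSO (columns); colour gives the log2 fold change, its scale ends at ±2, and a dot marks an adjusted p under 0.05. The deepest value is that of Ak4 without glutamine, at -3.01, and Torin1 and 4EGI-1 have opposite colours for Ak4 (-0.72 and 0.53).

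HIF binds the core RCGTG, so the letters ACGTG and GCGTG were searched on both strands in the 250 bases before the start of each gene, in RefSeq promoter windows of the mouse build GRCm38.p6 that were matched by symbol (the reads were mapped to GRCm39). Windows were found for 33 of the 36 members, all but Slc2a3, Bnip3l and Bhlhe40. At least a single copy stood in a window of 29 of the 33 members (87.9%), against 5554 (62.8%) of the 8843 genes with a window among the 12642 tested in nutrient total RNA, and 41.5% of all 27025 genes in the table of windows. A gene with more windows has more chances of a copy, and the 33 members had 52 windows. By window the share was 41 of 52 (78.8%) for the members, against 38.6% of all 32851 windows. It was not computed by window for the genes tested. Both letter strings contain CG. In the window with the most copies of each gene, the median was 18 CG dinucleotides for the members, 17 over the genes tested and 6 over all genes. The windows of the 4 members with the largest falls without glutamine are shown, since the results turn on these genes, with each copy in capitals on either strand (CACGT and CACGC on the strand printed are copies on the other). Ak4 has 4 windows, of which the window with the most copies is printed, and Hilpda has 2. None of the 4 printed windows holds CACGTG, the E-box bound by MYC and by Bhlhe40, over a copy, but another window of Ak4 holds 1 CACGTG. A match is a string of letters and not a measured binding site.
Ak4 promoter (chr4:101419039-101419288, + strand): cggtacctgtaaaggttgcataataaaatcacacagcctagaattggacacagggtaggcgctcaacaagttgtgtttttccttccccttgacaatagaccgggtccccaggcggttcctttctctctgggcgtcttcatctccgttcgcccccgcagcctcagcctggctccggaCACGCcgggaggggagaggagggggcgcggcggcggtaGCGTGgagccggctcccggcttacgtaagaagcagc
Hilpda promoter (chr6:29272376-29272625, + strand): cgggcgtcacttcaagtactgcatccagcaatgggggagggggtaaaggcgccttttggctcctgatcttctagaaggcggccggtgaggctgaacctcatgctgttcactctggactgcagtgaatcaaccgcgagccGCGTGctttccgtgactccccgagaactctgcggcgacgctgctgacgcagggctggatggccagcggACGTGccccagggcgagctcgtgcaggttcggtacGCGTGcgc
Slc2a1 promoter (chr4:119108495-119108744, + strand): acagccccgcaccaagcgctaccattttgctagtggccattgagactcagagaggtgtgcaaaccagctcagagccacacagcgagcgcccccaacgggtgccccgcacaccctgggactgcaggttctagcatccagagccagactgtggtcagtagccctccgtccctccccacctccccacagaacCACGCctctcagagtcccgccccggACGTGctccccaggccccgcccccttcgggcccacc
Slc16a3 promoter (chr11:120948817-120949066, + strand): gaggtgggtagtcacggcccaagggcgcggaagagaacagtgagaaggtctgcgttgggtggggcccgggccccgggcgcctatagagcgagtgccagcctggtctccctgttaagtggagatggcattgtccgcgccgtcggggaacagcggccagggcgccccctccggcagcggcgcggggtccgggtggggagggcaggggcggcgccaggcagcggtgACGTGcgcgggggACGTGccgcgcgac

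Methionine withdrawal lowered the transporters, lactate carriers and hydroxylase genes as well, and Hif1a itself. Without methionine 25 of the 36 fell and 1 rose, where 35.2% of genes tested changed (15.7% lower), and the median of the members was -0.36 beside 0.02 for all genes tested. Ak4 had 36.8, 31.3 and 33.9 CPM without methionine, against the Control values given above, a change of -1.41 ± 0.07 (adjusted p = 3.1e-12). Hilpda had 55.6, 60.2 and 62.4 CPM, a change of -0.92 ± 0.06, again with no overlap between the groups. Pfkl had 159, 138 and 169.8 CPM without methionine, against 282, 268 and 272 CPM in Control (-0.82 ± 0.08, adjusted p = 3.6e-08). Slc2a3 had 227, 240.2 and 249.9 CPM without methionine, against 358, 405 and 406 CPM in Control (-0.71 ± 0.07, adjusted p = 7.5e-08). For both, each library without methionine lay below each Control library.

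Slc2a1 had 281, 299 and 327 CPM without methionine and fell by 0.48 ± 0.09. Egln3 had 200.5, 214 and 192 CPM and fell by 0.69 ± 0.06, and Egln1 fell by 0.57 ± 0.06. Hif1a itself had 959.8, 850.2 and 834 CPM without methionine, all below the lowest Control library, and fell by 0.29 ± 0.07 (adjusted p = 0.0033). Of the glycolytic enzyme genes 9 of 16 fell, among them all 3 phosphofructokinase genes, with Pfkm at -0.52 ± 0.11 and Pfkp at -0.40 ± 0.09, and the hexokinase gene Hk1 at -0.48 ± 0.08. Both fructose-2,6-bisphosphate genes fell, Pfkfb4 by 0.54 ± 0.11 and Pfkfb3 by 0.36 ± 0.09, as did the 3 genes of lactate export and pyruvate gating. Bhlhe40 was the member that rose, by 0.42 ± 0.08.

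Glucose withdrawal split the set. Without glucose 9 members rose and 12 fell, where 40.8% of genes tested changed (21.8% higher, 19.0% lower), and the median of the members was 0.06. With plain library totals as the scale, 4 rose and 13 fell. Ak4 had 36.6, 38.3 and 35.5 CPM without glucose, below its Control libraries, a change of -1.30 ± 0.07 (adjusted p = 1.6e-11). Slc16a3 had 206, 225 and 229 CPM, which is 2.00-fold below Control (adjusted p = 2.6e-07). Egln3 had 189, 189 and 189 CPM, nearly the same level in each library, and fell by 0.78 ± 0.06 (adjusted p = 8.9e-10). Slc16a1 had 324, 340.1 and 348 CPM without glucose, against 448, 513 and 514 CPM in Control (-0.54 ± 0.07), so both lactate carrier genes were lower in cells given no glucose.

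The glucose transporter genes went opposite ways without glucose. Slc2a1 had 308, 335 and 343 CPM, below every Control library, and fell by 0.36 ± 0.09. Slc2a3 had 441, 458 and 473 CPM, above every Control library, and rose by 0.23 ± 0.07. Among the enzymes 5 rose and 4 fell: the aldolase gene Aldoa rose by 0.40 ± 0.07, the isomerase gene Gpi1 by 0.32 ± 0.07, Aldoc and Gapdh by 0.19 ± 0.06 and 0.19 ± 0.07, and the scarce enolase Eno2, with as few as 16 reads in a library, by 0.50 ± 0.20. Pgam1 (-0.37 ± 0.05), Pfkl (-0.23 ± 0.08), the lactate dehydrogenase gene Ldha (-0.20 ± 0.06) and Tpi1 (-0.19 ± 0.06) fell. Pfkfb4 and Bhlhe40 also rose, by 0.27 ± 0.10 and 0.31 ± 0.08, and Pdk1, Bnip3 and Egln1 fell by 0.29 ± 0.06, 0.23 ± 0.08 and 0.16 ± 0.05. Hif1a had 1261, 1252 and 1209 CPM without glucose, above all Control libraries, and rose by 0.20 ± 0.07 (adjusted p = 0.03). That call was lost when 1 of 4 libraries was left out (replicates 1 or 2 without glucose, replicates 2 or 3 of Control), with values of 0.18 to 0.20, and with plain library totals as the scale (0.15).

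BCAA withdrawal changed the members about as often as genes at large, with 12 of the 36 called. Without BCAA 4 members rose and 8 fell, where 30.1% of genes tested changed (16.4% higher, 13.6% lower), and the median was -0.01. Ankrd37 had 33.4, 32.6 and 28.9 CPM without BCAA, against 17.5, 18.6 and 18.3 CPM in Control, and rose 1.74-fold (0.80 ± 0.09, adjusted p = 5.0e-07). Vhl had 72.9, 70.0 and 73.0 CPM without BCAA, against 44.9, 47.5 and 47.0 CPM in Control, and rose by 0.63 ± 0.06. Pfkm, the muscle-type phosphofructokinase gene, had 19.1, 18.6 and 16.7 CPM without BCAA, against 35.7, 26.1 and 27.9 CPM in Control, and fell by 0.72 ± 0.11. None of these 3 genes overlapped between the groups. Pfkfb4 had 6.86, 6.92 and 6.33 CPM without BCAA, against 8.58, 9.31 and 8.88 CPM in Control, a low level at which it fell by 0.41 ± 0.11. Slc2a1 had 457, 526 and 441 CPM (0.17 ± 0.09), Hif1a 1091, 999 and 1165 CPM (0.01 ± 0.07) and Egln3 305, 308 and 291 CPM (-0.11 ± 0.05), and none of these was called. Bhlhe40 and Ero1a also rose, by 0.39 ± 0.08 and 0.25 ± 0.06.

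Arginine withdrawal gave 11 members that fell and 2 that rose, where 9.24% of genes tested changed (4.14% lower, 5.10% higher), with a median of -0.17 for the members and 0.01 for all genes tested. Ak4 had 58.5, 54.5 and 61.7 CPM without arginine and fell by 0.63 ± 0.07 (adjusted p = 5.5e-06). Slc2a3 had 301, 328 and 291 CPM without arginine and fell by 0.35 ± 0.07, and Hilpda had 91.3, 86.5 and 89.1 CPM and fell by 0.34 ± 0.06. For these 3 genes each library without arginine lay below each Control library. Pfkp, the platelet-type phosphofructokinase gene, had 408, 378 and 461 CPM without arginine, against 644, 476 and 502 CPM in Control (-0.38 ± 0.09), and its call was lost without replicate 1 or 2 of the cells deprived of arginine or replicate 1 of Control (-0.37 to -0.23). Slc2a1 had 443, 486 and 376 CPM (0.05 ± 0.09) and Hif1a 948, 895 and 1040.5 CPM (-0.17 ± 0.07), neither of them called, and Egln3 had 266, 282 and 270.2 CPM and fell by 0.26 ± 0.06. Ankrd37 and Mxi1 rose, by 0.30 ± 0.09 and 0.21 ± 0.06. In replicate 2 without arginine the mitochondrial ribosomal RNA entries took 4.98% of reads. Leaving that library out gave 8 calls in place of 13, leaving out replicate 1 without arginine 8, and leaving out replicate 1 of Control 6, all of them falls. With plain library totals the 12 members called all fell.

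**Figure D2:**
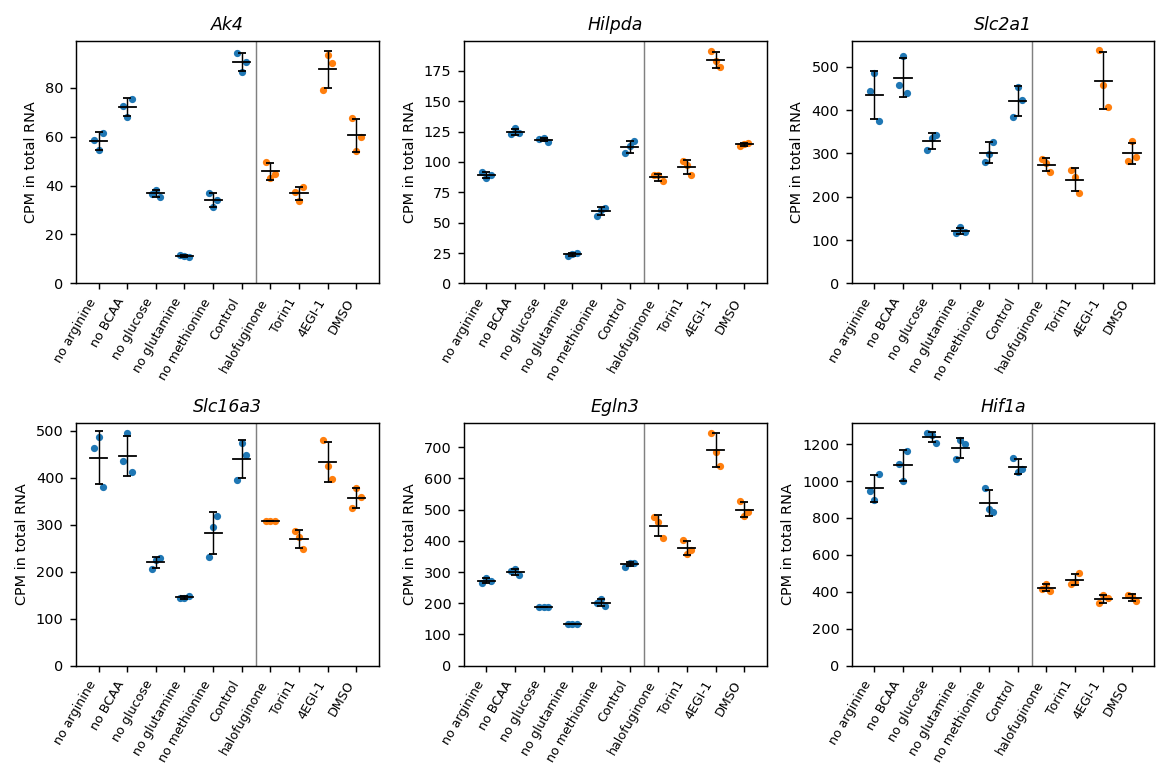
Level in total RNA (CPM, linear axis) of 6 members in each library, with points for libraries and bars for the mean ± SD (n = 3). The nutrient groups and the drug groups are separate experiments with their own controls. Slc2a1 sits at 116 to 129 CPM without glutamine and at 385 to 454 CPM in Control, while the groups of Hif1a lie close together.

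Side by side, Ak4 changed by -0.63, -0.33, -1.30, -3.01 and -1.41 in cells deprived of arginine, of BCAA, of glucose, of glutamine and of methionine, in this order, and each of these values passed its test. Pgam1 changed by -0.29, -0.31, -0.37, -0.56 and -0.47, Tpi1 by -0.26, -0.17, -0.19, -0.66 and -0.39, and Slc16a1 by -0.30, -0.41, -0.54, -0.57 and -0.57, also called each time. All 5 comparisons share the Control libraries. Differences between deprivations were therefore tested directly, each pair of deprived groups against each other.

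Tested against the other deprivations, glutamine withdrawal gave lower levels of Ak4, Slc2a1 and Hilpda each time. Set against no glucose it had 28 members lower and 1 higher, where 32.5% of genes tested differed. The counts were 20 lower and 1 higher against no BCAA (14.2% of genes), 21 lower and 2 higher against no arginine (36.1%) and 16 lower and 4 higher against no methionine (25.7%). Ak4 differed by -1.59 ± 0.08 from its level without methionine, -1.71 ± 0.08 without glucose, -2.37 ± 0.08 without arginine and -2.68 ± 0.08 without BCAA. Slc2a1 differed by -1.32 ± 0.09, -1.44 ± 0.09, -1.85 ± 0.09 and -1.97 ± 0.10 in the same order, and Hilpda by -1.31 ± 0.06, -2.30 ± 0.06, -1.89 ± 0.06 and -2.38 ± 0.06. No library without glutamine overlapped any library of the other deprivations in these 3 genes. Ankrd37 differed by -1.12 ± 0.10, -1.64 ± 0.10, -1.77 ± 0.10 and -2.28 ± 0.10, and Egln3 by -0.60 ± 0.06, -0.51 ± 0.06, -1.03 ± 0.06 and -1.18 ± 0.06. Hif1a was higher without glutamine than without methionine by 0.42 ± 0.07 (adjusted p = 2.2e-04) and than without arginine by 0.29 ± 0.07, and was not called against no glucose (-0.07 ± 0.07) or no BCAA (0.12 ± 0.07).

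Methionine withdrawal stood below glucose withdrawal in 21 members and above it in 1, where 34.0% of genes tested differed. Lower without methionine than without glucose were Hilpda (-0.99 ± 0.06), Slc2a3 (-0.94 ± 0.07) and Hif1a (-0.49 ± 0.07), while Slc2a1 (-0.12 ± 0.09) and Egln3 (0.10 ± 0.06) were not called different. Against no BCAA, methionine withdrawal differed in 21 members, all lower (13.4% of genes tested), and against no arginine it had 17 lower and 1 higher (25.1%). Ak4 stood at -1.08 ± 0.07 against no BCAA and -0.78 ± 0.07 against no arginine, and Slc2a1 at -0.65 ± 0.09 and -0.53 ± 0.09. Glucose withdrawal against no BCAA split evenly, with 10 members higher and 10 lower (28.7% of genes), Slc16a3 at -1.02 ± 0.11 and Pfkm at 0.84 ± 0.11, Slc2a1 at -0.53 ± 0.09 and Egln3 at -0.67 ± 0.06. Against no arginine it had 16 higher and 5 lower (37.2%), with Slc2a3 at 0.58 ± 0.07, Slc16a3 at -1.01 ± 0.11 and Hif1a at 0.37 ± 0.07. BCAA withdrawal against no arginine had 9 higher and 1 lower (20.3%), with Hk2 at 0.58 ± 0.16, Vhl at 0.55 ± 0.06 and Ankrd37 at 0.50 ± 0.09. The call of Hk2 was lost without replicate 1 of the cells deprived of BCAA or replicate 1 or 2 of those deprived of arginine (0.51 to 0.55).

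Polysome loading was then read as the log2 ratio of polysome to total RNA in each lysate. In Control cells 18 members were higher in polysome than in total RNA and 9 lower, where 65.7% of 13072 genes tested differed (37.6% higher, 28.0% lower). Pgam1, Tpi1 and Aldoc stood highest, at 0.65, 0.82 and 0.80 (Pgam1), 0.66, 0.83 and 0.78 (Tpi1) and a fitted 0.68 ± 0.07 (Aldoc). Egln1 and Ankrd37 stood lowest, at -0.74, -0.64 and -0.87 and -0.85, -0.49 and -0.73. The 3 lysates lay on the same side of 0 for each of these genes. Egln3 (-0.49 ± 0.07) and Bnip3 (-0.62 ± 0.10) were also below 0, Hif1a was above it (0.37, 0.39 and 0.31, fitted 0.36 ± 0.07), and Slc2a1 (0.10 ± 0.13) was not called. In DMSO cells, of the other experiment and labelled as polyA RNA, 14 members were higher and 12 lower, where 59.3% of 12745 genes differed (28.4% higher, 30.9% lower). There enzyme genes led, with Aldoc at 1.33, 1.59 and 1.09, Aldoa at 1.27, 1.65 and 1.01, Tpi1 at 1.42, 1.30 and 1.13 and Ldha at 1.17, 1.57 and 0.95. Hif1a stood at -0.33, -0.78 and -0.35, below 0 in all 3 DMSO lysates (fitted -0.48 ± 0.14), and was no longer called without DMSO replicate 3 (-0.33). The experiments differ in RNA preparation as labelled and were not tested against each other.

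Change of that ratio against the control ratio is called translational efficiency (TE) here, a statement about loading and not about protein. The total and polysome libraries of a lysate are paired by the protocol, so the fit with the lysate as a block is given where it changes the call of a gene named here. The split between rising and falling TE depends on the scale: scaling without ribosomal RNA entries moved the median TE change of all genes by 0.14 without BCAA, 0.13 without glucose, 0.16 without glutamine and 0.12 without methionine. Without methionine 18 members rose and 12 fell in TE, where 49.1% of genes tested changed (19.2% higher, 29.9% lower), with a median of 0.29 for the members and -0.14 for all genes tested. Bnip3 had log2 ratios of -1.92, -2.20 and -2.26 in the lysates without methionine, against -0.75, -0.44 and -0.70 in Control, and its TE fell by 1.51 ± 0.14 (adjusted p = 6.8e-10). Ankrd37 had -1.67, -2.10 and -1.98 without methionine, against -0.85, -0.49 and -0.73 in Control, and fell by 1.25 ± 0.16. Egln3 had -1.42, -1.68 and -1.46 without methionine, against -0.56, -0.46 and -0.47 in Control, and fell by 1.03 ± 0.10. All 3 genes had a smaller polysome share in each lysate without methionine, besides the lower level in total RNA.

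The transporter genes and several enzyme genes moved up in the same cells. Pfkp had log2 ratios of 0.47, 0.80 and 0.69 without methionine, against -0.50, -0.40 and -0.39 in Control, and its TE rose by 1.09 ± 0.15 (adjusted p = 2.7e-07). Slc2a3 had 0.67, 0.82 and 0.84 without methionine, against -0.21, -0.33 and -0.23 in Control, and rose by 1.04 ± 0.15. Slc2a1 had 0.80, 0.91 and 1.03, against 0.12, -0.07 and 0.25 in Control, and rose by 0.82 ± 0.18. No lysate without methionine overlapped a Control lysate in these genes. Pkm (0.97 ± 0.12), Hk1 (0.92 ± 0.15), Pfkm (0.71 ± 0.14), Hk2 (0.66 ± 0.24) and Eno1 (0.58 ± 0.12) rose as well, and Hif1a rose by 0.51 ± 0.10. The polysome level of Slc2a1 stood at 512, 585 and 700.1 CPM without methionine, against 419, 418 and 492 CPM in Control, a rise of 0.44 ± 0.14 although its total RNA fell. That rise was lost without replicate 3 of the cells deprived of methionine (0.32).

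**Figure D3:**
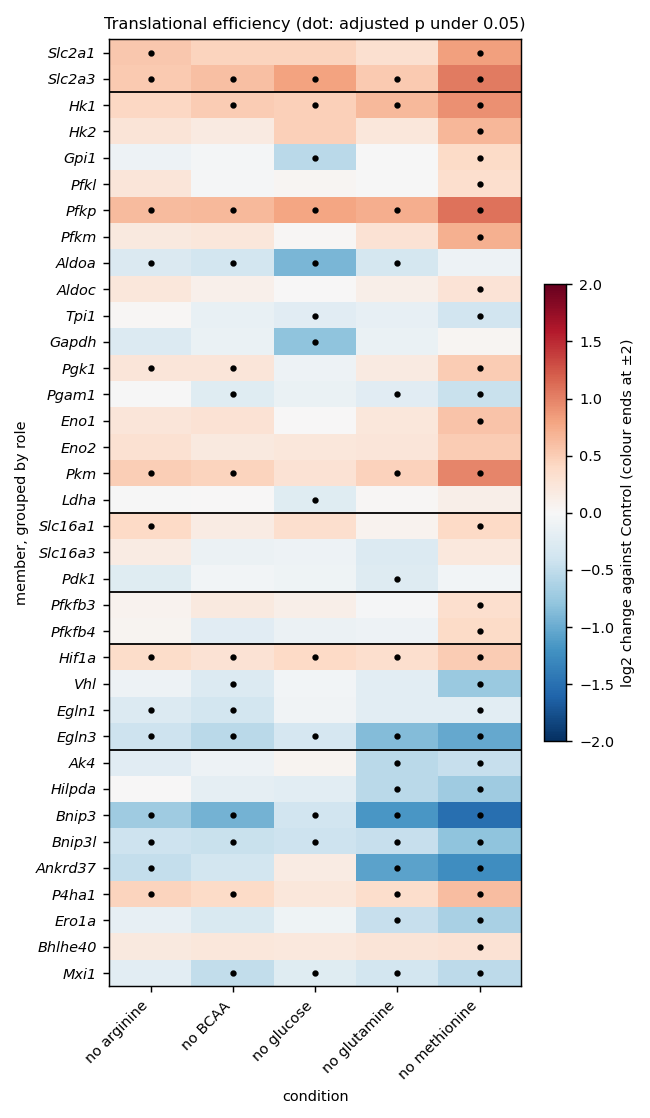
Log2 change in translational efficiency of the 36 members (rows, grouped by role) in the 5 nutrient conditions against Control (columns); colour gives the log2 change, its scale ends at ±2, and a dot marks an adjusted p under 0.05. Without methionine Pfkp stands at 1.09 and Bnip3 at -1.51, and without glucose Aldoa stands at -0.91.

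Without glutamine 6 members rose and 11 fell in TE, where 35.2% of genes tested changed (9.98% higher, 25.2% lower). The split was 10 and 8 with RLE size factors, 9 and 9 with plain totals and 12 and 8 without ribosomal RNA entries. Bnip3 had log2 ratios of -1.69, -1.91 and -1.75 without glutamine and fell by 1.16 ± 0.14 (adjusted p = 2.2e-07), Ankrd37 had -1.85, -1.72 and -1.69 and fell by 1.07 ± 0.17, and Egln3 had -1.38, -1.35 and -1.34 and fell by 0.86 ± 0.10. All 3 genes lay below the Control lysates in every lysate without glutamine. Ak4 (-0.53 ± 0.12), Hilpda (-0.54 ± 0.10) and Ero1a (-0.46 ± 0.12) fell too, and in polysome RNA Ak4 had 8.85, 8.19 and 9.85 CPM without glutamine, against 92.0, 103 and 88.3 CPM in Control, 10.5-fold lower. Hilpda in polysome RNA had 24.8, 26.4 and 25.9 CPM, against 150.1, 167 and 159 CPM in Control (-2.63 ± 0.08), and Egln3 had 55.8, 56.5 and 56.3 CPM, against 215, 232 and 233 CPM in Control (-2.01 ± 0.08). Pfkp had log2 ratios of 0.34, 0.40 and 0.13 and rose by 0.73 ± 0.15, and Slc2a3 and Hif1a rose by 0.52 ± 0.15 and 0.33 ± 0.10, the last of which lost its call without replicate 1 of the cells deprived of glutamine (0.30). For Slc2a1 the ratios were 0.28, 0.56 and 0.40, a TE change of 0.32 ± 0.18 that was not called, but was with the lysate as a block (0.31 ± 0.10, adjusted p = 0.017), and its polysome level fell to 153, 207 and 167 CPM.

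Without glucose 4 members rose and 9 fell in TE, where 25.8% of genes tested changed (8.84% higher, 16.9% lower). The split turned to 7 higher and 4 lower with RLE size factors, 9 and 3 with plain totals and 8 and 4 without ribosomal RNA entries. Aldoa had log2 ratios of -0.36, -0.62 and -0.58 without glucose, against 0.40, 0.36 and 0.42 in Control, and its TE fell by 0.91 ± 0.10 (adjusted p = 5.3e-08). Gapdh had -0.43, -0.72 and -0.59 without glucose, against 0.23, 0.15 and 0.27 in Control, and fell by 0.80 ± 0.10. Gpi1 (-0.54 ± 0.10), Ldha (-0.24 ± 0.08) and Tpi1 (-0.22 ± 0.08) fell too. Aldoa, Gapdh and Gpi1 are genes whose total RNA rose without glucose, and in polysome RNA Aldoa and Gapdh were lower than in Control (-0.43 ± 0.08 and -0.52 ± 0.08). Slc2a3 had log2 ratios of 0.63, 0.51 and 0.51 and rose by 0.80 ± 0.14, and its polysome level was 727, 679 and 687 CPM without glucose, against 311, 312 and 339 CPM in Control, 2.17-fold higher. Pfkp had 0.49, 0.34 and 0.22 and rose by 0.79 ± 0.15, Hif1a had 0.80, 0.82 and 0.65 and rose by 0.40 ± 0.10, and Slc2a1 had 0.67, 0.46 and 0.51, not called at 0.44 ± 0.18 but called with the lysate as a block (0.45 ± 0.10, adjusted p = 0.0016). Egln3 had -1.01, -0.78 and -0.71 and fell by 0.34 ± 0.10, a call that RLE factors (-0.25), plain totals (-0.18), scaling without ribosomal RNA entries (-0.21), a fit of only these conditions (-0.28) or loss of replicate 1 without glucose (-0.25) each ended. Leaving out that library brought the count of members called to 8 in place of 13.

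**Figure D4:**
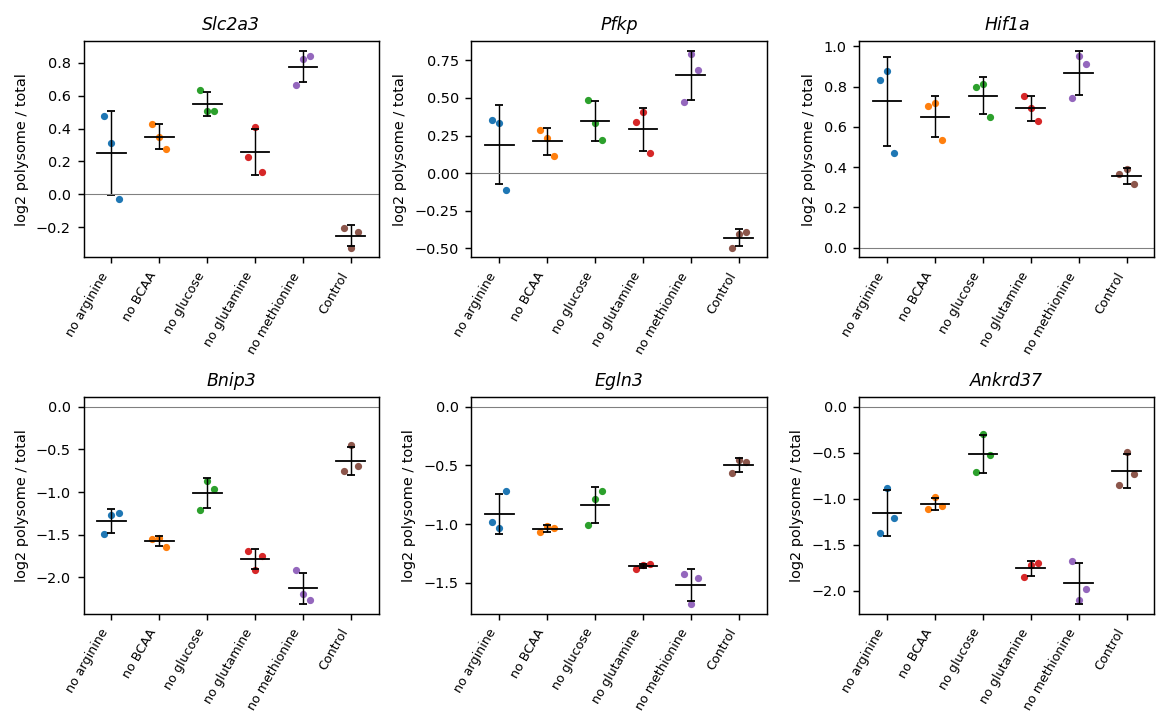
Log2 ratio of polysome to total RNA in each lysate (points) with the mean ± SD (bars, n = 3) for 6 members in the 5 deprivations and Control. Bnip3 reaches -1.92 to -2.26 without methionine and lies between -0.44 and -0.75 in Control, while Slc2a3 lies between 0.67 and 0.84 without methionine and between -0.33 and -0.21 in Control.

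Without BCAA 7 members rose and 8 fell in TE, where 26.9% of genes tested changed (8.03% higher, 18.9% lower), and without ribosomal RNA entries 10 rose and 5 fell. Bnip3 had log2 ratios of -1.55, -1.53 and -1.64 and fell by 0.95 ± 0.14, and Egln3 had -1.07, -1.01 and -1.03 and fell by 0.54 ± 0.10, with all lysates below Control for both. Pfkp had 0.29, 0.24 and 0.11 and rose by 0.65 ± 0.15, and Slc2a3 had 0.43, 0.35 and 0.28 and rose by 0.61 ± 0.14. Slc2a1 had 0.44, 0.58 and 0.61 (0.44 ± 0.18, not called, and adjusted p = 0.0017 with the lysate as a block), and its polysome level rose to 672, 818 and 706 CPM, by 0.73 ± 0.14. Without arginine 8 rose and 6 fell, where 16.5% of genes tested changed (6.72% higher, 9.81% lower), and without ribosomal RNA entries 10 rose and 3 fell. Bnip3 had -1.50, -1.26 and -1.25 and fell by 0.71 ± 0.14, and Egln3 had -0.99, -1.04 and -0.72 and fell by 0.41 ± 0.10, again below every Control lysate. Among the members that rose, replicate 3 without arginine was the lowest: Pfkp had 0.35, 0.33 and -0.11, Slc2a3 had 0.48, 0.31 and -0.03, and Slc2a1 had 0.82, 0.62 and 0.44. Their TE changes were 0.63 ± 0.15, 0.53 ± 0.14 and 0.54 ± 0.18. Without replicate 1 of the cells deprived of arginine these 3 calls were lost (0.54, 0.42 and 0.44), and the count of members called was 2 in place of 14. The call of Slc2a3 was also lost without replicate 2 of Control (0.49). That of Slc2a1 was also lost without replicate 2 of the deprived cells, without replicate 1 or 2 of Control and in a fit of only these conditions (0.46 to 0.56). The count was 7 without replicate 2 of the deprived cells or replicate 2 of Control, and 8 without replicate 3 of Control.

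Hif1a had polysome levels of 2335, 2291 and 1941 CPM without glucose, 2051, 2142 and 1988 CPM without glutamine, 1922, 1712 and 1776 CPM without BCAA and 1683, 1707 and 1647 CPM without methionine, against 1457, 1326 and 1293 CPM in Control. Each library of these 4 groups lay above each Control library. The polysome changes were 0.69 ± 0.08, 0.60 ± 0.08, 0.41 ± 0.08 and 0.31 ± 0.08, and each passed the test. Without arginine the level was 1689, 1625 and 1426 CPM, a group that overlapped Control and rose by 0.22 ± 0.08, and that call was lost without replicate 1 or 2 of the deprived cells or replicate 3 of Control (0.17 to 0.20). The TE changes of Hif1a without arginine and BCAA were 0.37 ± 0.10 and 0.29 ± 0.10, and both calls were lost when certain single lysates were left out. The call without arginine was lost without replicate 1 or 2 of the deprived cells or replicate 3 of Control (0.30 to 0.35). The call without BCAA was lost without any 1 of 5 of the 6 lysates, all but replicate 3 of the deprived cells (0.26 to 0.31).

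Over all members polysome RNA gave 4 higher and 12 lower without arginine (40.5% of 12417 genes tested changed, 19.0% higher and 21.6% lower), or 6 and 10 members with RLE size factors. The counts were 13 and 11 without BCAA (56.1% of genes, 28.7% higher and 27.4% lower) and 13 and 11 without glucose (59.0%, 29.6% higher and 29.4% lower). They were 9 and 18 without glutamine (64.5%, 32.2% higher and 32.4% lower) and 14 and 15 without methionine (69.0%, 34.3% higher and 34.7% lower). Egln3 in polysome RNA changed by -0.66 ± 0.08, -0.55 ± 0.08, -1.03 ± 0.08 and -1.62 ± 0.08 without arginine, BCAA, glucose and methionine. Bnip3 had 47.1, 50.3 and 41.8 CPM without methionine, 98.3, 92.1 and 90.0 CPM without BCAA and 83.7, 93.7 and 99.9 CPM without arginine, against 149.7, 189 and 166 CPM in Control. The fall was 3.62-fold without methionine (-1.86 ± 0.10), with -0.85 ± 0.10 without BCAA and -0.86 ± 0.10 without arginine. Ak4 had 29.7, 27.7 and 25.2 CPM without methionine (-1.78 ± 0.09), 43.6, 43.3 and 40.7 CPM without glucose (-1.15 ± 0.09) and 51.0, 49.0 and 58.3 CPM without arginine (-0.84 ± 0.09), all below Control. Hilpda had 52.0, 56.7 and 55.4 CPM without methionine (-1.54 ± 0.08) and Ankrd37 1.95, 2.16 and 2.17 CPM without glutamine, against 9.74, 12.7 and 10.8 CPM in Control (-2.41 ± 0.13). Upward, Slc2a1 had 785, 737 and 505 CPM without arginine (0.61 ± 0.14), and Bhlhe40 had 1342, 1351 and 1398 CPM without BCAA, against 943, 719 and 827 CPM in Control (0.72 ± 0.10). Slc16a3 had 321, 288 and 329.7 CPM without glucose, against 537, 639 and 709 CPM in Control (-1.01 ± 0.15).

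In the drug experiment several HIF targets fell with Torin1 and rose with 4EGI-1, both set against the same DMSO libraries. With Torin1 14 members fell and 6 rose in total RNA, where 26.7% of 12535 genes tested changed (13.3% lower, 13.3% higher). With 4EGI-1 14 rose and 1 fell, where 26.4% of genes changed (14.1% higher, 12.3% lower). Mitochondrial ribosomal RNA entries took 0.614 to 0.968% of the reads in the 4EGI-1 total RNA libraries, against 0.142 to 0.207% with DMSO, and without ribosomal RNA entries 15 members were again called. The hexokinase gene Hk2 had 78.0, 62.6 and 104 CPM with Torin1, against 197, 107 and 151 CPM with DMSO, and fell by 0.90 ± 0.21 with a wide spread between libraries (adjusted p = 0.0038). Ak4 had 37.4, 33.8 and 39.3 CPM with Torin1, against 67.7, 54.0 and 59.7 CPM with DMSO, and fell by 0.72 ± 0.10. Pfkfb3 had 42.2, 39.5 and 51.0 CPM, against 75.7, 63.7 and 63.1 CPM with DMSO, and fell by 0.61 ± 0.11. All Torin1 libraries lay below the DMSO libraries in these genes. Pfkl had 109, 108 and 116 CPM, against 173, 150.2 and 159.9 CPM with DMSO (-0.54 ± 0.09). Slc2a1 had 262, 246 and 209.7 CPM, against 283, 328 and 291 CPM with DMSO (-0.33 ± 0.10), a call lost without DMSO replicate 3 (-0.27) or Torin1 replicate 4 (-0.26), and Egln3 had 403, 358 and 370.2 CPM, against 527, 480.1 and 493 CPM with DMSO (-0.41 ± 0.08). The members that rose with Torin1 were Mxi1 (0.53 ± 0.08), Gpi1 (0.41 ± 0.08), Gapdh (0.39 ± 0.07), Hif1a (0.34 ± 0.07), Aldoa (0.32 ± 0.09) and Bnip3l (0.27 ± 0.07). Hif1a had 445, 451 and 501 CPM with Torin1, each above the DMSO libraries at 380.4, 376 and 348 CPM.

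With 4EGI-1 both glucose transporter genes rose. Slc2a3 had 1043, 892 and 828 CPM, against 560.5, 514 and 618 CPM with DMSO (0.71 ± 0.11, adjusted p = 1.1e-04), and Slc2a1 had 539, 458 and 408 CPM, against the DMSO values above (0.64 ± 0.10). Hilpda had 191, 183 and 178 CPM with 4EGI-1, against 113, 115 and 116 CPM with DMSO (0.69 ± 0.07), and Ero1a had 1067, 899 and 754 CPM, against 562, 594 and 579 CPM with DMSO (0.65 ± 0.11). Each 4EGI-1 library was above each DMSO library in these 4 genes. Egln3 had 747, 684 and 641 CPM and rose by 0.47 ± 0.08, as did Ak4 (0.53 ± 0.09) and Vhl (0.51 ± 0.07). Hif1a had 337, 382 and 366 CPM and was not called (-0.02 ± 0.07). Of the 14 that rose, 6 were other HIF targets, 3 were HIF pathway genes, 2 were the transporter genes, 2 were Slc16a3 and Pdk1, and 1 was Pfkfb3. The member that fell was the enzyme gene Pfkl (-0.28 ± 0.09, overlapping groups). The call of Pfkl was lost with the replicate number as a block (-0.20, adjusted p = 0.063).

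Torin1 and 4EGI-1 cells were also tested against each other. Torin1 cells were lower in 19 members and higher in 4, where 37.3% of genes tested differed. The difference was -1.25 ± 0.10 for Ak4 (adjusted p = 3.5e-08), -1.13 ± 0.11 for Ero1a, -1.04 ± 0.11 for Slc2a3, -0.97 ± 0.10 for Slc2a1 and -0.87 ± 0.08 for Egln3. Eno2, a gene of few reads, was lower with Torin1 too (adjusted p = 0.0083), and Hif1a was higher with Torin1 by 0.36 ± 0.07. In the first 4 of these genes and in Egln3, Hilpda, Slc16a3, Pfkfb3, Egln1 and Bnip3 the value against DMSO was below 0 and called for Torin1 and above 0 and called for 4EGI-1, in comparisons that share the DMSO libraries.

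Halofuginone changed 1 member, where 0.279% of genes tested changed (0.0399% lower). Hilpda had 89.0, 89.1 and 84.0 CPM with halofuginone, against 113, 115 and 116 CPM with DMSO, and fell by 0.39 ± 0.07 (adjusted p = 0.018). DESeq2 called 2 members. The call was lost without DMSO replicate 1 or 4 or any single halofuginone library (-0.40 to -0.36). Slc2a1 had 288, 277 and 258 CPM (-0.13 ± 0.10), Hif1a 418, 441 and 406 CPM (0.20 ± 0.07) and Egln3 475, 462 and 410.0 CPM (-0.15 ± 0.08), none of them called. In total RNA 4EGI-1 against halofuginone had 16 members higher and 1 lower (21.4% of genes tested), with Hilpda at 1.08 ± 0.07 and Ak4 at 0.93 ± 0.10. Torin1 against halofuginone had 7 higher and 6 lower (22.2%, and 6 and 9 members with plain totals), with Ero1a at -0.67 ± 0.11 and Mxi1 at 0.48 ± 0.08. Leaving out halofuginone replicate 2 or 3 brought that count to 7 or 8.

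**Figure D5:**
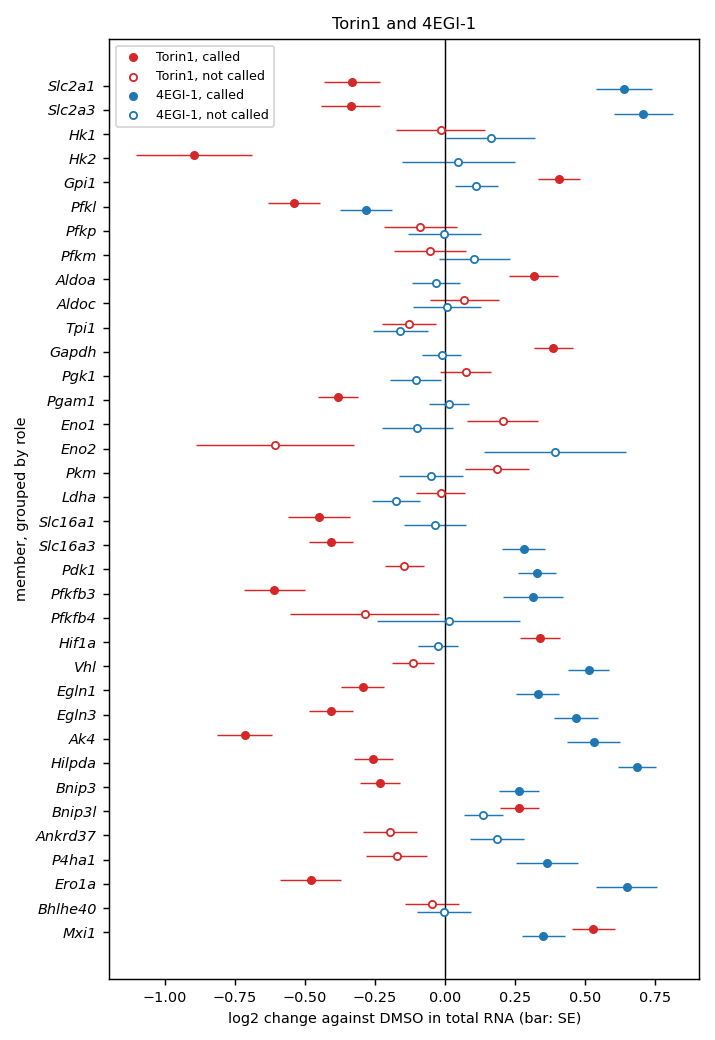
Log2 change against DMSO in total RNA of each member (rows) with Torin1 and 4EGI-1; points are fitted values, bars the standard error, and filled points have an adjusted p under 0.05. Torin1 lies left of 0 and 4EGI-1 right of 0 for both transporters, for Egln1 and Egln3 and for Ak4, Hilpda, Bnip3 and Ero1a.

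In TE 3 enzyme genes changed with Torin1, all of them lower, where 1.79% of 12745 genes tested changed (1.67% lower). Gapdh had log2 ratios of -0.34, -0.03 and -0.25 with Torin1, against 1.00, 1.35 and 0.87 with DMSO, and fell by 1.28 ± 0.16 (adjusted p = 6.1e-05). Aldoa had 0.35, 0.63 and 0.44 with Torin1, against 1.27, 1.65 and 1.01 with DMSO, and fell by 0.84 ± 0.18. Gpi1 had -0.17, 0.11 and -0.12 with Torin1, against 0.56, 1.13 and 0.52 with DMSO, and fell by 0.80 ± 0.15. No Torin1 lysate overlapped a DMSO lysate in the 3 genes. The calls of Aldoa and Gpi1 were lost without DMSO replicate 3 (-0.67 and -0.61) or Torin1 replicate 1 (-0.77 and -0.74), which left 1 call. Slc2a1 (0.36 ± 0.26), Hif1a (0.44 ± 0.19) and Egln3 (0.23 ± 0.15) were not called.

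In polysome RNA 11 members fell and 2 rose with Torin1, where 16.8% of 12223 genes tested changed (8.30% lower, 8.48% higher), and 5 rose and 4 fell with plain totals, a scaling that shifted the all-gene median by 0.18. Gapdh had 7004, 8095 and 6756 CPM with Torin1, against 13426, 15506 and 12844 CPM with DMSO (-0.93 ± 0.15). Hif1a had 414, 446 and 363 CPM, against 277, 202 and 255 CPM with DMSO, and rose by 0.74 ± 0.16, and Mxi1 had 114, 91.8 and 97.1 CPM, against 64.2, 40.8 and 62.0 CPM with DMSO, and rose by 0.86 ± 0.16. Ak4 had 19.4, 15.5 and 20.8 CPM, against 36.7, 25.1 and 27.8 CPM with DMSO (-0.69 ± 0.16), lost as a call without DMSO replicate 1 (-0.48) or with plain library totals (-0.51). Slc2a1 (-0.02 ± 0.21) and Egln3 (-0.22 ± 0.13) were not called there. The count of 13 was 6 without DMSO replicate 1, 7 without Torin1 replicate 1 and 8 without Torin1 replicate 4. With 4EGI-1 13 rose and 1 fell, where 28.6% of genes changed (14.1% higher, 14.5% lower). Plain totals moved the median of all genes by 0.26 here, and 23 members, all higher, were called, while DESeq2 called 15 higher and 4 lower. Slc2a3 had 1234, 824 and 756 CPM with 4EGI-1, against 320.1, 422 and 431 CPM with DMSO (1.26 ± 0.20), Slc2a1 had 900.3, 569 and 496 CPM, against 299, 417 and 309 CPM with DMSO (0.94 ± 0.21), and Ak4 had 51.1, 49.4 and 61.0 CPM (0.85 ± 0.16). Bnip3 had 371, 234 and 224 CPM, against 155, 147 and 189 CPM with DMSO, and rose by 0.76 ± 0.19, a call lost without 4EGI-1 replicate 2 (0.49), a polysome library whose name carries an unexplained R, as does that of Torin1 replicate 3. Without Torin1 replicate 3 the counts of members called with Torin1 were 9 in polysome RNA and 3 in TE. Egln3 rose by 0.50 ± 0.13, Hif1a stood at 0.37 ± 0.16 without a call, and Gapdh was the member that fell (-0.45 ± 0.14).

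By edgeR's test 0 members were called in TE with 4EGI-1, where 0.565% of genes tested changed, and 7 had an unadjusted p under 0.05. With the lysate as a block 630 genes were called in place of 72, and 1 member, Slc2a3, was higher (0.60 ± 0.17, adjusted p = 0.044, against 0.62 and adjusted p = 0.21 without the block). With halofuginone 0 were called in polysome RNA (0.0491% of genes tested, 6 members at an unadjusted p under 0.05, 0 by DESeq2) and 0 in TE (0% of genes tested, 0 members at an unadjusted p under 0.05, 0 by DESeq2). DESeq2 also called 0 in TE with 4EGI-1. In TE Slc2a1 stood at 0.36 ± 0.26 with 4EGI-1 and 0.27 ± 0.26 with halofuginone, Hif1a at 0.45 ± 0.19 and 0.34 ± 0.19, and Egln3 at 0.09 ± 0.15 and -0.13 ± 0.15. The standard error of TE was wider in the drug experiment than in the nutrient experiment, for Hif1a 0.19 with each drug and 0.10 in each deprivation. Counts of 0 here therefore do not show that no member changed.

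Other genes of the same routes, taken from lists and not from the 36, give the surroundings, and their counts stand beside the shares of all genes called in the same comparisons, which were given above. Of 19 further HIF targets tested, 13 rose and 1 fell with 4EGI-1, with a median of 0.53 beside 0.01 for all genes tested. Among them Vegfa, the vascular growth factor, rose by 1.05 ± 0.09 and Rab20 fell by 1.06 ± 0.21. With Torin1 3 rose and 5 fell, with the heme oxygenase gene Hmox1 at -1.41 ± 0.17 and Ddit4, an inhibitor of mTOR complex 1, at -1.25 ± 0.09. Without glutamine 6 rose and 6 fell, with Stc2 (0.99 ± 0.08) and Hmox1 (0.98 ± 0.08) both upward. Without glucose 9 rose and 4 fell, with Hmox1 at 1.87 ± 0.07, and the counts were 8 and 1 without BCAA (Stc2 at 1.58 ± 0.08) and 7 and 4 without methionine, while without arginine 4 changed, all higher. Hmox1, Stc2 and Ddit4 are also induced by other stress pathways, so the list does not read HIF alone.

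Of 9 HIF partners and degradation genes tested, 2 rose and 2 fell without glutamine, 1 rose and 1 fell without methionine, 3 rose without BCAA, 2 rose and 1 fell with 4EGI-1 and 1 rose with halofuginone, beside the shares of all genes called of 39.0%, 35.2%, 30.1%, 26.4% and 0.279%. Without glucose 1 rose and with Torin1 2 fell, beside 40.8% and 26.7% of all genes. Hif3a stood at -1.77 ± 0.47 without glutamine and Hif1an at 0.42 ± 0.12 without BCAA. The hydroxylase gene Egln2 stood at -0.31 ± 0.11 without methionine and -0.39 ± 0.12 with 4EGI-1. Cul2 stood at -0.26 ± 0.09 with Torin1. Siah2, a ubiquitin ligase for the hydroxylases, rose by 0.92 ± 0.06 without BCAA, 0.77 ± 0.06 without glutamine, 0.68 ± 0.06 without methionine, 0.54 ± 0.06 without glucose, 0.54 ± 0.07 with 4EGI-1 and 0.35 ± 0.07 with halofuginone, and fell by 0.74 ± 0.07 with Torin1. Around glycolysis, 5 of 7 glycogen and UDP-glucose genes changed without glucose, all higher (21.8% of all genes), with the glycogen synthase gene Gys1 at 0.85 ± 0.08 and the phosphorylase gene Pygl at 0.47 ± 0.08. Gys1 also rose without BCAA (0.73 ± 0.07) and without glutamine (0.27 ± 0.08). In the hexosamine pathway 2 of 6 rose and 1 fell without glucose, where 40.8% of all genes changed, with the O-GlcNAc transferase gene Ogt at 1.83 ± 0.10 and the opposing hydrolase gene Oga at -0.60 ± 0.09. Without glutamine 39.0% of all genes changed (18.6% lower), and the next 3 counts are to be read against that share. Of 8 pentose phosphate genes 4 changed without glutamine, all lower, with Rpia at -0.50 ± 0.07 and Pgd at -0.38 ± 0.10. Of 10 genes of pyruvate entry to mitochondria 3 fell and 2 rose without glutamine, with the pyruvate dehydrogenase phosphatase gene Pdp2 at -0.86 ± 0.08 and Dld at 0.66 ± 0.07. Of 10 other glycolytic isozymes and regulators 3 changed without glutamine, all lower, with Adpgk at -0.55 ± 0.07 and Bsg, the chaperone of the lactate carriers, at -0.37 ± 0.09. Several genes of these lists also changed in other deprivations. Pdp2 stood at -0.91 ± 0.08 without glucose, -0.87 ± 0.08 without BCAA, -0.50 ± 0.08 without methionine and -0.38 ± 0.08 without arginine. Rpia stood at -0.46 ± 0.07 without BCAA, -0.38 ± 0.07 without methionine and -0.28 ± 0.07 without arginine. Adpgk stood at -0.58 ± 0.07 without glucose and -0.18 ± 0.07 without BCAA. Dld stood at 0.53 ± 0.07 without methionine.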

How the data were processed

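Total RNA and pooled polysome RNA from 60 libraries of 20 groups were taken from the deposited table of counts per gene; the 18 monosome libraries were not analysed here. Per the submitters' processing notes the authors' tools included FastQC, MultiQC, Trimmomatic, STAR, HTSeq and edgeR with the build GRCm39, and the versions are not given in the sources used here. The deposited counts are whole numbers with no normalization. How the counting treated strand and reads with several matches is not given.

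Genes were kept by edgeR's filterByExpr (minimum count 10), scaled by TMM and tested with edgeR 4.0.16 (quasi-likelihood F test, R 4.3.3, limma 3.58.1), each experiment and RNA fraction in its own fit over all its conditions, with Benjamini-Hochberg adjustment at 0.05 within each comparison. Translational efficiency was the interaction of fraction and condition in a joint fit of both fractions, with the lysate as a block as an alternative. The main TE counts and standard errors come from the fit without that block. Replicates were left out in that fit only, so how TE calls with the lysate block depend on single lysates was not tested. The standard error is the log2 change divided by the square root of F. The script that runs these fits was tested on simulated data. There 1.5-fold changes were called for 74% of the changed genes in total RNA without arginine and 63% with halofuginone. In polysome RNA the shares were 74% and 31%, and in TE 43% and 11%. For 2-fold changes the lowest share was 61%, in TE with halofuginone. In each simulation 100 genes were changed 1.5-fold and 100 2-fold in a single condition, as many up as down. Every library was drawn independently, with no shared lysate. In each deprivation many more genes were called, so these shares need not hold for the real comparisons. Named in full were up to 4 called members per comparison with the largest change and no overlap between groups, and Slc2a1, Hif1a and Egln3; other members are named with a change only. Members, lists and tests were chosen with earlier results of these data known. Totals of 15144663 to 54272886 reads per library leave counting error small for most members; Eno2 (16 reads at the lowest), Pfkfb4 (24) and Ankrd37 (79) are the least precise.

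Same-numbered libraries were checked for shared deviations from their group means (mean r 0.0758 and 0.167 in nutrient total and polysome RNA, 0.128 and 0.0975 in the drug experiment, with pairs from -0.338 to 0.622). Pairs of unlike number had a mean r of -0.0376 and -0.0834 in nutrient total and polysome RNA. In the drug experiment it was -0.0447 and -0.0335. The deviations within a group sum to 0, so these values follow largely from those of same-numbered pairs and are no independent reference. The labels do not say what the numbers mark, and they were not taken to pair the libraries across conditions. Total and polysome libraries of the same number in a condition come from 1 lysate, per the labels' protocols, and are paired (mean r 0.147 in the nutrient and 0.184 in the drug experiment). The 60 within-group pairs all differed by more than counting noise. Alternatives were RLE size factors, plain totals, scaling without ribosomal RNA entries, no filter, DESeq2 1.42.0, only the conditions compared, the replicate number as a block, and leaving out each replicate.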

Additional observations from a re-analysis of the deposited data

Results flagged for a closer look

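In total RNA some members changed one way in a condition and the opposite way in another, both past the threshold against the same control libraries, and the direct test of the difference was also past it (edgeR, adjusted p under 0.05). In each bracket stand the log2 changes of the first and the second condition named against the control and the difference between them. Between cells without glutamine and cells without glucose this held for Slc2a3 (-0.63 and 0.23, difference -0.86) and Gapdh (-0.18 and 0.19, difference -0.37). Between cells without glutamine and cells without BCAA this held for Ankrd37 (-1.48 and 0.80, difference -2.28) and Ero1a (-0.34 and 0.25, difference -0.58). Between cells without glutamine and cells without arginine this held for Ankrd37 (-1.48 and 0.30, difference -1.77) and Mxi1 (-0.24 and 0.21, difference -0.44). Between cells without methionine and cells without glucose this held for Slc2a3 (-0.71 and 0.23, difference -0.94), Pfkfb4 (-0.54 and 0.27, difference -0.81) and Hif1a (-0.29 and 0.20, difference -0.49). Between cells without methionine and cells without BCAA this held for Ankrd37 (-0.36 and 0.80, difference -1.16). Between cells without methionine and cells without arginine this held for Ankrd37 (-0.36 and 0.30, difference -0.66). Between cells without glucose and cells without BCAA this held for Pfkfb4 (0.27 and -0.41, difference 0.68). Between cells without glucose and cells without arginine this held for Slc2a3 (0.23 and -0.35, difference 0.58) and Aldoc (0.19 and -0.23, difference 0.42).

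Between Torin1 and 4EGI-1 it held for Slc2a1 (-0.33 and 0.64, difference -0.97), Slc2a3 (-0.34 and 0.71, difference -1.04), Slc16a3 (-0.41 and 0.28, difference -0.69), Pfkfb3 (-0.61 and 0.31, difference -0.92), Egln1 (-0.29 and 0.33, difference -0.63), Egln3 (-0.41 and 0.47, difference -0.87), Ak4 (-0.72 and 0.53, difference -1.25), Hilpda (-0.26 and 0.69, difference -0.94), Bnip3 (-0.23 and 0.26, difference -0.50) and Ero1a (-0.48 and 0.65, difference -1.13). Between 4EGI-1 and halofuginone it held for Hilpda (0.69 and -0.39, difference 1.08). The differences between conditions were not weighed for a cause, and the conditions of an experiment share their control libraries. The call of Slc2a1 with Torin1 was lost when either of 2 libraries was left out. That of Hilpda with halofuginone was lost without any 1 of 5 libraries, and that of Hif1a without glucose without any 1 of 4. The direction stayed the same each time.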

How the results depend on the processing

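In 683 called values of single members, none changed direction under another setting. The calls kept were 668 with DESeq2, 669 with no filter, 664 with RLE size factors, 633 with plain totals, 666 without ribosomal RNA entries and 626 with only the conditions compared, and 3448 of 3939 when a single replicate was left out. With the replicate block 681 of 683 were kept, and the exceptions were Pfkl in total RNA (-0.20) and P4ha1 in polysome RNA (0.42), both with 4EGI-1; TE with 4EGI-1 gave 1 member under the block, which there is the lysate, against 0 without it. The lysate block gave 17, 19, 17 and 21 members in TE without arginine, BCAA, glucose and glutamine (14, 15, 13 and 17 without it). The numbers were not taken to pair the libraries across conditions in the main fits. Fitting only the conditions compared gave 8 members in TE without arginine (14 with all conditions) and 11 for no glutamine against no methionine (20), with fewer samples behind each fit. DESeq2 gave 2 members with halofuginone in total RNA (1 by edgeR), and plain totals 23 in polysome RNA with 4EGI-1 (14 with TMM). Leaving out a replicate gave 6 to 14 members in total RNA and 2 to 15 in TE without arginine, 8 to 13 in TE without glucose, 0 to 1 in total RNA with halofuginone, 6 to 11 in polysome RNA and 1 to 3 in TE with Torin1, and 7 to 13 for Torin1 against halofuginone. The causes were not tested. Eno2, Pfkfb4 and Ankrd37 rest on few reads.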
